A study of Mus musculus with 9 samples.

Results

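The synaptic vesicle release machinery was followed through 38 member genes that carry a vesicle through docking, priming, calcium-triggered fusion and retrieval. The genes were listed by symbol, with earlier results of these data known. Every probe set annotated to 1 of these genes was taken, which gave 102 of the 45037 probe sets tested and 38 of 18193 genes. All 38 genes were measured, 7 by 1 probe set and 31 by more than 1, with at most 6 for a gene. The probe set with the highest mean over the arrays represents a gene in gene counts.

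Transcript levels came from brain hemispheres, without the cerebellum, of untreated adult male mice aged 11 ± 1 weeks. Each of 9 Affymetrix mouse oligonucleotide arrays held RNA pooled from 10 hemispheres, with left and right sides alternating, and each strain had 3 arrays from 30 mice. The strains were the inbred C57BL/6ByJ, the inbred BALB/cJ, and the line B6By.C.132.54. By its name that line holds BALB/c DNA in a C57BL/6By genome, and the labels do not say which segment is from the donor. No agent was given to any strain. Work was done in 3 batches. The labels do not tie replicate numbers to batches, and the numbers enter only as a block in a second model. Pools average over mice, so p-values set a strain difference against the spread between pools and not between mice. In whole tissue, fewer cells of a type and less RNA per cell cannot be told apart.

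Transmitter release works by the zippering of SNARE proteins, syntaxin and SNAP-25 on the plasma membrane with synaptobrevin (VAMP) on the vesicle. Complexins clamp and promote this assembly, synaptotagmins sense the calcium that triggers it, and NSF with its SNAP adaptors takes the spent complexes apart. Large scaffolds of the active zone hold vesicles near calcium channels, and an endocytic set of dynamin, amphiphysin, endophilin and synaptojanin recovers the membrane. Most of these genes are expressed in neurons throughout the brain.

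In all, 1 member probe set passed in each of BALB/cJ against C57BL/6ByJ and B6By.C.132.54 against BALB/cJ, and none between B6By.C.132.54 and C57BL/6ByJ (limma, Benjamini-Hochberg adjusted p under 0.05 over 45037 probe sets; such probe sets are termed called). It was the same probe set of Cplx2, which encodes complexin 2. Across all probe sets 1.43% were called in the first of these comparisons, 1.28% in the second and 0% in the third. The share of members called between the parental strains was 0.98%. With dim probe sets left out, 1 of 88 member probe sets was called between the parental strains, where 2.58% of all were. A count of 1 is too small to place the members against either share. Between B6By.C.132.54 and C57BL/6ByJ, 3 of 102 member probe sets (2.94%) had an unadjusted p under 0.05 (limma), where 3.89% of all probe sets did, and none was called with the replicate block either. Each pair of comparisons shares the arrays of 1 strain, so the calls in both comparisons with BALB/cJ rest on the same BALB/cJ arrays. No member gene was called by its representative probe set in any comparison, where 1.32%, 0% and 1.1% of all genes were (BALB/cJ against C57BL/6ByJ, then B6By.C.132.54 against C57BL/6ByJ and against BALB/cJ). With the replicate number as a block it was again none, where 1.99%, 0% and 1.75% of all genes were. At an unadjusted p under 0.05 (limma without the block), 4, 1 and 1 of the 38 genes passed in the same order (10.5%, 2.63% and 2.63%), where 7.78%, 3.99% and 7.59% of all genes did. A moderated F-test over the 3 strains (limma) called the Cplx2 probe set alone of the 102, against 1.28% of all probe sets.

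**Figure D1:**
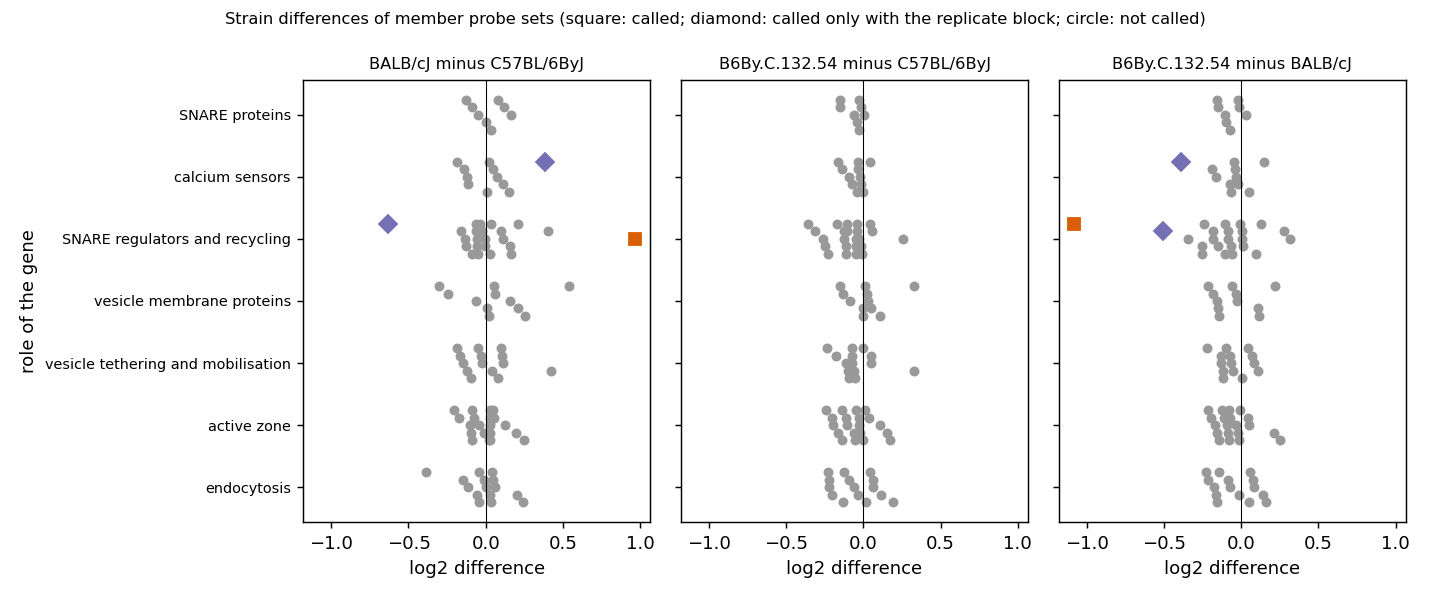
Log2 difference (x axis) of each of the 102 member probe sets in the 3 strain comparisons, in rows by the role of the gene. The square near 0.96 in the left panel and -1.08 in the right is Cplx2, diamonds are probe sets called only with the replicate block, and most circles lie within 0.4 of 0 with none past 0.54.

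Complexins are small soluble proteins that bind the assembled SNARE complex. Cplx2 lies on chromosome 13 and its relative Cplx1 on chromosome 5. The 250 bases before the start of both genes are shown because Cplx2 holds the called probe set and Cplx1 is its closest member (RefSeq, GRCm38.p6, 5′ to 3′ on the gene's strand). Capitals mark a GC box (GGGCGG, either strand), of which the Cplx2 window held none and the Cplx1 window 1. The Cplx2 window is chr13:54302306-54302555 on the plus strand, and the Cplx1 window is chr5:108550028-108550277 on the minus strand.
Cplx2: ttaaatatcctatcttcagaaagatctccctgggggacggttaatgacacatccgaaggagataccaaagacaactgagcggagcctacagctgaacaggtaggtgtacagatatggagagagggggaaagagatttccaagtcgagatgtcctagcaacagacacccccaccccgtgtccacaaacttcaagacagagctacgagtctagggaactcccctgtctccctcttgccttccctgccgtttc
Cplx1: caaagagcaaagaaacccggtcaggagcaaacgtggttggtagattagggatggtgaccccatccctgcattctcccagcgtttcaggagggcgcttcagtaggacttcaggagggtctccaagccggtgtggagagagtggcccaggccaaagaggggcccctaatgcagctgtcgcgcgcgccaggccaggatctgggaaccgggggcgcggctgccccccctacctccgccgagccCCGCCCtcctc

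The Cplx2 probe set 1421477_at read 7.77, 7.85 and 7.78 log2 intensity in C57BL/6ByJ replicates 1, 2 and 3. The BALB/cJ arrays read 8.78, 8.86 and 8.67, and the B6By.C.132.54 arrays 7.48, 7.90 and 7.69. All BALB/cJ arrays lay above every array of the other strains, while C57BL/6ByJ and B6By.C.132.54 overlapped. The BALB/cJ mean of 8.77 ± 0.096 exceeded the C57BL/6ByJ mean of 7.80 ± 0.043 (SD, n = 3) by 0.96 ± 0.11 (SE) on the log2 scale, or 1.95-fold (limma adjusted p = 0.000752). B6By.C.132.54, at 7.69 ± 0.21, was 2.11-fold lower than BALB/cJ (limma adjusted p = 0.000366). Against C57BL/6ByJ it differed by -0.11 (95% interval -0.36 to 0.13), which was not called (limma adjusted p = 0.917). The parental difference held in each replicate number, at 1.01, 1.00 and 0.88.

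The other 2 Cplx2 probe sets did not move with it. Probe set 1455672_s_at, the brightest, measured 9.56 ± 0.23 in C57BL/6ByJ, 9.60 ± 0.12 in BALB/cJ and 9.51 ± 0.18 in B6By.C.132.54 (SD, n = 3). Probe set 1436383_at measured 8.50 ± 0.15, 8.47 ± 0.050 and 8.49 ± 0.13 in the same order. Their BALB/cJ differences from C57BL/6ByJ were 0.036 (95% interval -0.26 to 0.33) and -0.025 (95% interval -0.25 to 0.20). Within an array, the called probe set lay 1.07 to 1.35 below the mean of the others on the log2 scale in C57BL/6ByJ and 1.26 to 1.40 below it in B6By.C.132.54, but only 0.18 to 0.37 below it in BALB/cJ. The strain difference of Cplx2 therefore rests on 1 of its 3 probe sets, and which part of the transcript each one reads was not analysed here. None of the 20 measured genes nearest to Cplx2 in gene order, 10 on each side, was called in either comparison with BALB/cJ, and their differences between the parental strains ran from -0.11 to 0.33. Cplx1 had 3 probe sets with BALB/cJ differences from C57BL/6ByJ of -0.040, 0.16 and 0.21, none of them called.

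**Figure D2:**
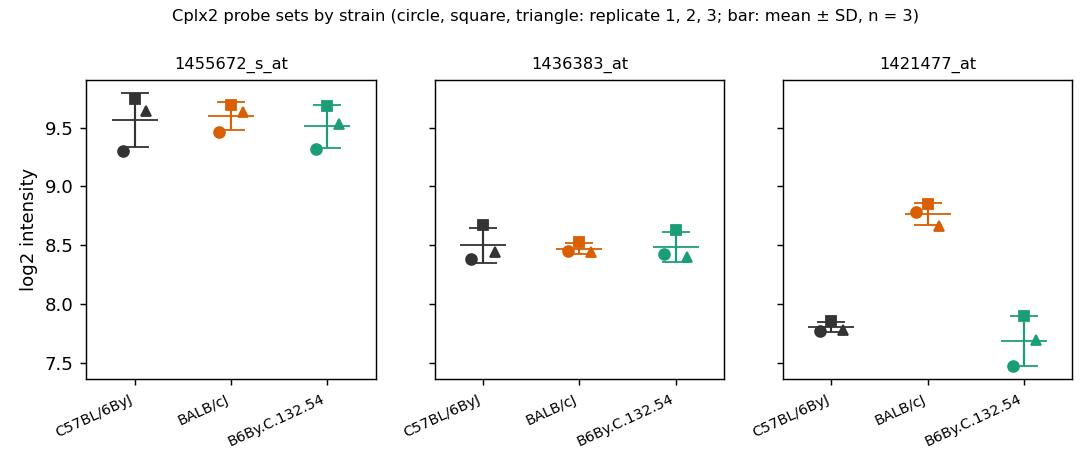
Log2 intensity (y axis) of the 3 Cplx2 probe sets in each strain, 1 point per array with mean ± SD bars (n = 3). In 1421477_at the BALB/cJ arrays sit between 8.67 and 8.86, above every other array, while the strains overlap in the other probe sets.

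The remaining genes of SNARE regulation and recycling held 2 further probe sets that were called only with the replicate number as a block. With the block, 3 member probe sets were called between the parental strains (2 higher and 1 lower in BALB/cJ), where 2.12% of all probe sets were (0.775% higher and 1.34% lower). Against BALB/cJ, B6By.C.132.54 had 3 called member probe sets, all lower, where 1.85% of all were called and 0.85% were called lower. The F-test with the block called 4 member probe sets, against 1.86% of all. With 3 and 4 of 102, nothing is read from their distance to the background. In addition to Cplx2, the probe sets were 1 each of Snapin, Napa and Syt11, and none represents its gene.

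Snapin encodes a SNAP-25-binding protein of vesicle priming and transport (chromosome 3). Its probe set 1426578_s_at read 4.63, 5.05 and 5.05 in C57BL/6ByJ, 4.05, 4.44 and 4.34 in BALB/cJ, and 4.49, 4.76 and 4.41 in B6By.C.132.54. Every BALB/cJ array lay below every C57BL/6ByJ array, by 0.59, 0.61 and 0.71 within replicate numbers 1, 2 and 3. The difference of -0.64 was not called without the block (SE 0.15, limma adjusted p = 0.074) and was called with it (SE 0.10, limma adjusted p = 0.00768). The B6By.C.132.54 mean lay between those of the parents and was called against neither. With the block, the Snapin call was lost when C57BL/6ByJ replicate 3, BALB/cJ replicate 1 or BALB/cJ replicate 2 was left out (limma adjusted p up to 0.0731). The brighter Snapin probe set 1415756_a_at differed by -0.16 (95% interval -0.39 to 0.072) and was called in neither model.

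Napa encodes alpha-SNAP, the adaptor that brings NSF to spent SNARE complexes (chromosome 7). Probe set 1416192_at read 5.45, 5.76 and 5.57 in C57BL/6ByJ, 5.82, 6.19 and 5.98 in BALB/cJ, and 5.48, 5.72 and 5.26 in B6By.C.132.54. The BALB/cJ arrays were the highest and did not overlap with either other strain. B6By.C.132.54 differed from BALB/cJ by -0.51, which was called with the block (SE 0.093, limma adjusted p = 0.0194) and not without it (SE 0.14, limma adjusted p = 0.171). The BALB/cJ difference from C57BL/6ByJ of 0.40 was called in neither model (limma adjusted p = 0.0639 with the block). With the block, the Napa call was lost without any 1 of the BALB/cJ arrays and without B6By.C.132.54 replicate 2 or 3 (limma adjusted p up to 0.121). The brighter probe set 1448243_at had the opposite sign in both comparisons, with differences of -0.087 for BALB/cJ from C57BL/6ByJ and 0.13 for B6By.C.132.54 from BALB/cJ, and was not called.

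The windows before the start of Napa and of Syt11 are shown beside those of the complexins because these genes hold the probe sets called with the block in a comparison with B6By.C.132.54 and have an entry in the promoter table. The Napa window is chr7:16098330-16098579 on the plus strand and the Syt11 window is chr3:88772600-88772849 on the minus strand. Capitals mark GC boxes and, in Napa, a CCAAT box (CCAAT, either strand).
Napa: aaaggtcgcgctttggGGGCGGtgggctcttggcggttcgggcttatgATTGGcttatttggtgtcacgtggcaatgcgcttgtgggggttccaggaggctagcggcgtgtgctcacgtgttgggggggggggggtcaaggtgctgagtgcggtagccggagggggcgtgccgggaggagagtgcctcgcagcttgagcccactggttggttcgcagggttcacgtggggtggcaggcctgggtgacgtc
Syt11: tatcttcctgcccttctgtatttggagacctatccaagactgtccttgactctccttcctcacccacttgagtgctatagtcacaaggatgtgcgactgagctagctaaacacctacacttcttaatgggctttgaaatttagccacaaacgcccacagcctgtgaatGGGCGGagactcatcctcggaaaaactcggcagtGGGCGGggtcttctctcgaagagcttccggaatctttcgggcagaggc

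The Napa window held 1 GC box and 1 CCAAT box, and the Syt11 window 2 GC boxes. Of the 38 member genes, 31 had an entry in the promoter table, 5 of them with more than 1, which gave 38 windows among 32851. The windows of the members were richer in G and C, with a median of 61.6% against 52.4% over all windows, and held a median of 16 CG dinucleotides against 6. A GC box stood in 22 of the 38 windows (57.9%, against 32.7% of all) and a CCAAT box in 8 (21.1%, against 33.9%). The TATA box (TATAAA) stood in 2 windows, both of Sv2b, or 5.26% against 12.4% of all. The cAMP response element (TGACGTCA) stood in 2, those of Syn1 and Sh3gl2 (5.26%, against 1.55%). The left part of the RE1 element, to which the neuronal gene repressor REST binds, read here as TTCAGCACC, also stood in 2, those of Syn1 and Ppfia3 (5.26%, against 0.301%). No motif searched contains another, both strands were searched, and these counts describe sequence alone.

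Among the calcium sensors, Syt1 is the fast sensor of synchronous release, Syt4 an isoform of neuropeptide vesicles, and Syt11 a calcium-insensitive relative. Syt11 probe set 1429315_at (chromosome 3) read 8.17, 8.80 and 8.70 in C57BL/6ByJ, 8.68, 9.11 and 9.03 in BALB/cJ, and 8.26, 8.74 and 8.65 in B6By.C.132.54. Replicate 1 was the lowest array of each strain, so the strains overlapped, yet within replicate numbers 1, 2 and 3 BALB/cJ exceeded C57BL/6ByJ by 0.51, 0.31 and 0.33. BALB/cJ differed from C57BL/6ByJ by 0.38 and B6By.C.132.54 from BALB/cJ by -0.39. Both differences were called with the block (SE 0.080, limma adjusted p = 0.0376 and 0.0386) and not without it (SE 0.18, limma adjusted p = 0.701 and 0.694). In the parental comparison with the block, the Syt11 call held only without B6By.C.132.54 replicate 2 or 3, and was lost without each of the other arrays (limma adjusted p up to 0.27). In the B6By.C.132.54 comparison it was lost without any 1 of the 9 arrays. The 4 other Syt11 probe sets were 0.046 to 0.15 higher in BALB/cJ than in C57BL/6ByJ, and none was called in either model.

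The brightest Syt11 probe set, 1429314_at, read 9.75, 10.05 and 9.89 in C57BL/6ByJ, 9.86, 10.15 and 10.02 in BALB/cJ, and 9.75, 10.05 and 9.67 in B6By.C.132.54, with all strains overlapping. Of the 20 measured genes nearest to Syt11 in gene order, 2 were called lower in BALB/cJ than in C57BL/6ByJ and higher in B6By.C.132.54 than in BALB/cJ. These were 1500004A13Rik, the adjacent measured gene, and Dap3, a mitochondrial ribosome gene, both picked out after their values were seen. Of all genes, 1.32% and 1.1% were called in these comparisons, in either direction. None of the 20 measured genes nearest to Napa, or of the 20 nearest to Snapin, was called in either comparison. The 4 probe sets of Syt1 differed by between -0.14 and 0.0053 between the parental strains, and the 2 of Syt4 by 0.020 and -0.18. The interval of the dimmer Syt4 probe set was wide (95% interval -1.08 to 0.72), so it bounds little.

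**Figure D3:**
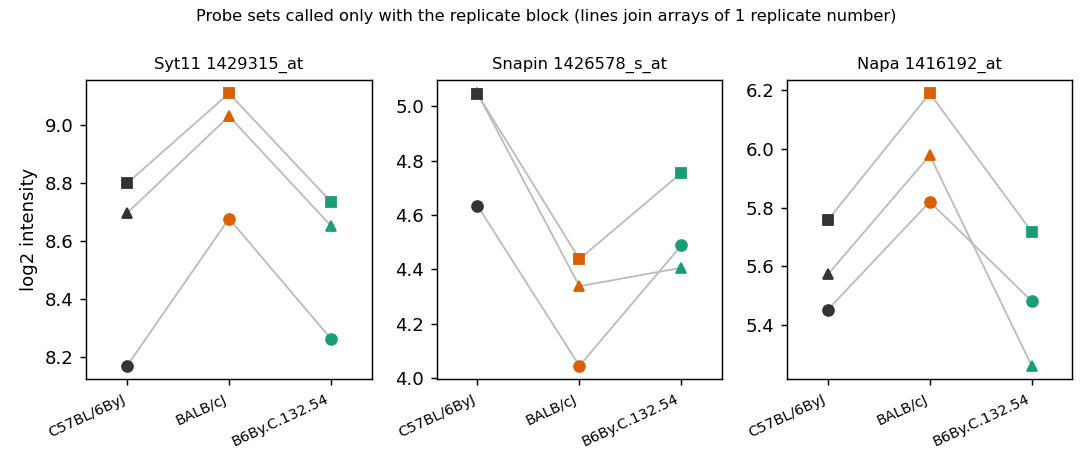
Log2 intensity (y axis, not starting at 0) of the 3 probe sets called only with the replicate block, by strain, with grey lines joining arrays of 1 replicate number. BALB/cJ is the highest point of each line for Syt11 and Napa and the lowest for Snapin, for which B6By.C.132.54 lies between the parents in replicates 1, 2 and 3.

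The other regulators were called in no comparison and neither model. Stxbp5 encodes tomosyn, a soluble protein that competes with VAMP for syntaxin. Its representative 1435398_at, the regulator with the largest strain difference among representatives, read 7.33, 7.22 and 7.20 in C57BL/6ByJ, 7.46, 7.36 and 7.27 in BALB/cJ, and 7.08, 7.22 and 6.76 in B6By.C.132.54. All B6By.C.132.54 arrays lay below the BALB/cJ arrays, and the difference was -0.34 ± 0.12 (SE; limma adjusted p = 0.386). Nsf, the ATPase of SNARE disassembly, differed by -0.054 between the parental strains by its brightest of 4 probe sets. Napb, which encodes the brain form beta-SNAP, had 6 probe sets whose parental differences ran from -0.064 to 0.027.

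None of the 4 SNARE genes had a called probe set. Stx1a, which encodes syntaxin 1A, had the largest strain difference among their representatives. Its probe set 1437390_x_at read 9.58, 9.73 and 9.69 in C57BL/6ByJ, 9.49, 9.57 and 9.57 in BALB/cJ, and 9.41, 9.67 and 9.49 in B6By.C.132.54. The BALB/cJ arrays all lay below the C57BL/6ByJ arrays, but the difference of -0.13 was not called (95% interval -0.33 to 0.076). Snap25, which encodes the plasma membrane SNARE of that name, differed by -0.052 between the parental strains (95% interval -0.46 to 0.35). Vamp2, the main synaptobrevin of the forebrain, differed by 0.031 (95% interval -0.18 to 0.24) and Vamp1 by 0.077 (95% interval -0.13 to 0.29). A further probe set annotated to Vamp1 and a second gene was left out.

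Of the vesicle membrane proteins, the SV2 glycoproteins differed most, in opposite directions. Sv2c, the form best known from basal ganglia, was measured by the dim 1453715_at alone, which read 2.82, 2.61 and 2.60 in C57BL/6ByJ, 3.01, 3.17 and 3.46 in BALB/cJ, and 2.76, 3.00 and 3.26 in B6By.C.132.54. It was the 1 representative of 38 whose mean lay under the overall probe set median of 3.97, and its differences are given without a fold. The BALB/cJ arrays lay above the C57BL/6ByJ arrays by 0.54 ± 0.15 (SE), not called in either model (limma adjusted p = 0.163, and 0.07 with the block). Sv2b, the forebrain form, read lower in BALB/cJ without overlap in both of its probe sets, by -0.25 (95% interval -0.42 to -0.073) and -0.31 (95% interval -0.56 to -0.053). Neither Sv2b probe set was called (limma adjusted p = 0.305 and 0.47). Sv2a, the widespread form, measured 0.21 higher in BALB/cJ (95% interval 0.013 to 0.40), not called. Syp, which encodes synaptophysin, and the synaptogyrin genes Syngr1 and Syngr3 differed between the parental strains by 0.0063, 0.022 and 0.052 by their representatives.

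Among the genes of vesicle tethering and mobilisation, synapsins tie vesicles to actin in the reserve pool and Rab3 proteins are vesicle GTPases of docking. Syn1 probe set 1451484_a_at read 8.97, 9.48 and 9.36 in C57BL/6ByJ, 9.32, 9.44 and 9.38 in BALB/cJ, and 9.02, 9.41 and 9.05 in B6By.C.132.54. Its strains overlapped, and the largest difference, -0.22 between B6By.C.132.54 and BALB/cJ (95% interval -0.53 to 0.092), was not called. Rab3a had 2 bright probe sets with parental differences of opposite sign (-0.14 and 0.097), and the representative of Rab3c read -0.19 (95% interval -0.40 to 0.032). Syn2, Erc1 and Vamp1 are the 3 members on chromosome 6, where Grm7, a metabotropic glutamate receptor gene, also lies. They follow Grm7 in gene order at a distance of 43, 84 and 165 measured genes. Their representatives differed between B6By.C.132.54 and C57BL/6ByJ by -0.099, -0.030 and -0.029, and none of their probe sets was called. The members lay on 18 chromosomes, with at most 4 on 1 chromosome (Sv2c, Rab3c, Cplx2 and Amph on chromosome 13).

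The active zone genes build the release site. Bassoon (Bsn) and piccolo (Pclo) are giant scaffolds, RIM proteins (Rims1 and Rims2) recruit calcium channels, Munc13-1 (Unc13a) primes vesicles, and the ELKS proteins (Erc1 and Erc2) and liprin (Ppfia3) link them. None of their probe sets was called in a comparison. Unc13a had the largest difference among the representatives of this group and read 6.41, 6.47 and 6.37 in C57BL/6ByJ, 6.40, 6.04 and 6.51 in BALB/cJ, and 6.43, 6.53 and 6.75 in B6By.C.132.54. A single low array, BALB/cJ replicate 2, widened its spread, and B6By.C.132.54 exceeded BALB/cJ by 0.25 (95% interval -0.027 to 0.53). Representatives of Bsn, Pclo, Rims1, Erc2 and Ppfia3 differed between the parental strains by -0.10 (Pclo) to 0.056 (Rims1), and those of Erc1 and Rims2 by 0.12 and 0.19.

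In the endocytosis group, amphiphysin (Amph) brings dynamin to the neck of a budding vesicle. Amph probe set 1427044_a_at read 8.20, 8.11 and 8.06 in C57BL/6ByJ, 7.78, 7.76 and 7.67 in BALB/cJ, and 8.05, 8.03 and 7.61 in B6By.C.132.54. The C57BL/6ByJ arrays lay above all others, with a difference of -0.39 ± 0.12 (SE) for BALB/cJ, which was not called (limma adjusted p = 0.266, and 0.0796 with the block). Without B6By.C.132.54 replicate 3, whose value was the lowest of the 9, Amph was called lower in BALB/cJ (limma adjusted p = 0.0374). Both probe sets of Dnm1, the neuronal dynamin, differed by 0.24 and 0.20 in BALB/cJ from C57BL/6ByJ, with intervals that included 0. Snap91 (AP180, a clathrin assembly protein), Synj1 (synaptojanin 1, a lipid phosphatase of uncoating), Bin1 (amphiphysin 2) and Sh3gl2 (endophilin A1) differed between the parental strains by 0.0044, -0.047, 0.038 and -0.15 by their representatives.

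Arrays of the compared strains did not overlap for 13 of the 102 member probe sets between the parental strains, 4 between B6By.C.132.54 and C57BL/6ByJ, and 10 between B6By.C.132.54 and BALB/cJ. Over all probe sets the shares were 12.6%, 6.62% and 9.51%. The 13 and 10 of 102 were near these shares, and nothing is read from the distance of 4 of 102 to its share. The precision of the 38 representatives was similar in every comparison, with a median SE of 0.108. In the parental comparison, 34 of the 38 had a 95% interval within 0.5 of 0 on the log2 scale, and all 38 within 1. In the comparisons of B6By.C.132.54 with C57BL/6ByJ and with BALB/cJ, 36 and 33 lay within 0.5.

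Most member genes had small negative differences in B6By.C.132.54. By representatives, 32 of 38 differences from C57BL/6ByJ were negative, with a median of -0.097, and 30 of 38 differences from BALB/cJ, with a median of -0.085. Over all genes 55.1% and 58.2% were negative, with medians of -0.016 and -0.025, and over the 11469 genes at or above the median of all probe sets 67.3% and 63.8%, with medians of -0.052 and -0.043. Over the 76 other genes of the vesicle cycle described below, 76.3% and 73.7% were negative, with medians of -0.066 and -0.071. Between the parental strains 18 of 38 differences were negative (median 0.0054). None of these genes was called, and the counts are a description without a test.

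These counts varied with single arrays. The median deviation of the 38 members from their means was -0.089, 0.082 and -0.13 on B6By.C.132.54 replicates 1, 2 and 3. It was -0.026, 0.11 and 0.011 in C57BL/6ByJ and -0.0018, 0.057 and -0.0010 in BALB/cJ, so B6By.C.132.54 replicate 2 lay among the higher arrays and replicate 3 was the lowest. Without B6By.C.132.54 replicate 3, 23 of 38 differences from C57BL/6ByJ were negative (median -0.041) and 24 of those from BALB/cJ (median -0.021). Without B6By.C.132.54 replicate 2 the medians were -0.16 and -0.14, and without C57BL/6ByJ replicate 2, 24 of 38 differences from C57BL/6ByJ were negative (median -0.072). With quantile normalization of the arrays, 22 of 38 differences from C57BL/6ByJ and 25 of 38 from BALB/cJ were negative. Their medians were -0.013 and -0.043, beside 0.0086 and -0.0046 over all genes at or above the median of all probe sets. With median centring of the arrays, 32 and 28 of 38 were negative, with medians of -0.104 and -0.069. Over the genes at or above the median these were -0.059 and -0.027. Within replicate numbers 1, 2 and 3, the median difference of the members from C57BL/6ByJ was -0.023, -0.026 and -0.17, and that from BALB/cJ was -0.089, 0.020 and -0.15. Over all genes at or above the median of all probe sets it was -0.019, -0.0054 and -0.116 from C57BL/6ByJ. From BALB/cJ it was -0.0058, 0 and -0.121 over the same genes. The lowest correlation between arrays of 1 strain was 0.987, in B6By.C.132.54, and its replicate 3 had the lowest array weight (0.378).

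**Figure D4:**
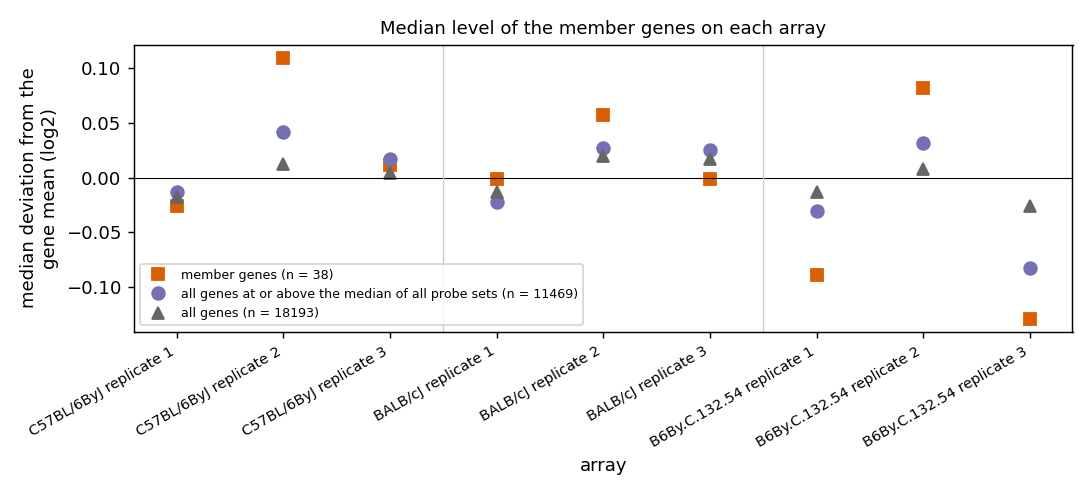
Median deviation (y axis, log2) from each gene's mean over 9 arrays, on each array (x axis), for the 38 member genes, all genes, and all genes at or above the median of all probe sets. Members are lowest on B6By.C.132.54 replicate 3 (-0.13), and highest on C57BL/6ByJ replicate 2 (0.11), and replicate 2 is the highest array of each strain.

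Markers of cell types were set beside the members. All 10 neuron markers lay above the median of all probe sets, as did all astrocyte, oligodendrocyte, endothelial and choroid plexus markers, whereas 3 of 6 cerebellar genes (Pcp2, Cbln3 and Gabra6) and the microglia gene Itgam lay below it. In B6By.C.132.54 against C57BL/6ByJ, 9 of 10 neuron markers, 5 of 7 astrocyte markers and 6 of 6 measured oligodendrocyte markers had negative differences (medians -0.12, -0.12 and -0.090), as did 4 of 8 microglia markers. The same held for 4 of 5 endothelial, 3 of 3 choroid plexus and 4 of 6 cerebellar markers. Of all genes at or above the median of all probe sets, 67.3% had negative differences. On B6By.C.132.54 replicate 3 the median deviations of the neuron, astrocyte and oligodendrocyte markers were -0.17, -0.17 and -0.16. Those of the choroid plexus and cerebellar markers were -0.17 and -0.091, and those of the microglia and endothelial markers were 0.038 and 0.033. For all genes at or above the median of all probe sets it was -0.083. The part of the markers in the members' values was not tested. No neuron marker was called without the block. With it 1 of 10, the noncoding RNA gene Snhg11, was called lower in BALB/cJ than in C57BL/6ByJ (limma adjusted p = 0.03). The myelin gene Mal, 1 of 6 oligodendrocyte markers, was likewise called lower only with the block, by -0.44 (limma adjusted p = 0.0349, and 0.201 without it). Without the block, the astrocyte filament gene Gfap, 1 of 7 astrocyte markers, was called 0.92 higher in BALB/cJ than in C57BL/6ByJ (limma adjusted p = 0.00393). The complement genes C1qb and C1qc, 2 of 8 microglia markers, were called lower, both by -0.75 (limma adjusted p = 0.0193 and 0.00943), and the endothelial junction gene Cldn5, 1 of 5, by -0.54 (limma adjusted p = 0.0466). Between the parental strains, 5 of 7 astrocyte markers (median -0.032), 4 of 8 microglia markers and 4 of 5 endothelial markers had negative differences. So did 7 of 10 neuron markers and 4 of 6 oligodendrocyte markers. The complement gene C1qa differed by 0.17 and was not called. Gfap was also called lower, by -0.71, and C1qb and C1qc higher, by 0.88 and 0.83, in B6By.C.132.54 than in BALB/cJ (limma adjusted p = 0.0238, 0.00674 and 0.00475). These are the comparisons in which member probe sets were called, and the part of these markers in those calls was not tested.

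Of 81 other genes of the vesicle cycle, listed from knowledge of the pathway, 76 were measured by 208 probe sets. None was called by its representative in any comparison, with or without the block. Over their probe sets, 1 was called higher and 1 lower in BALB/cJ than in C57BL/6ByJ, beside 0.508% and 0.921% of all probe sets, and 2 were called higher and 2 lower in B6By.C.132.54 than in BALB/cJ, beside 0.713% and 0.564%. With the block, 1 was higher and 3 lower in BALB/cJ than in C57BL/6ByJ, beside 0.775% and 1.34% of all probe sets, and 2 were higher and 3 lower in B6By.C.132.54 than in BALB/cJ, beside 1% and 0.85%. Stx3, a syntaxin of ribbon synapses and dendrites, held the largest of these, with a difference of -1.51 in BALB/cJ (limma adjusted p = 0.000246) on a probe set whose mean of 3.88 lay below the median of all. In B6By.C.132.54 the same probe set was 1.38 higher than in BALB/cJ (limma adjusted p = 0.000489). Between the parental strains the brightest of the 4 Stx3 probe sets differed by 0.13. The dim 1426151_a_at differed by 0.26 and the dim 1434559_at by -0.075, and none of these was called in either model. Sypl encodes a synaptophysin-like protein, and its probe set 1422882_at was 0.67 higher in BALB/cJ than in C57BL/6ByJ (limma adjusted p = 0.00915). In B6By.C.132.54 it differed from BALB/cJ by -0.81 (limma adjusted p = 0.00265), and a second Sypl probe set by -0.80 (limma adjusted p = 0.0359). The probe sets of Sypl disagreed in sign. In BALB/cJ against C57BL/6ByJ its brightest, 1422880_at, differed by -0.088 and 1435081_at by -0.48, neither of them called in either model. Syt17 probe set 1422955_at was 0.75 higher in B6By.C.132.54 than in BALB/cJ (limma adjusted p = 0.0495). With the block, this Syt17 probe set was also called lower in BALB/cJ than in C57BL/6ByJ, by -0.73 (limma adjusted p = 0.00136), as was 1 of Dnm3, a dynamin, by -1.06 (limma adjusted p = 0.0452). The block also added a probe set of Rph3a, the Rab3 effector rabphilin, which differed by -0.999 between B6By.C.132.54 and BALB/cJ (limma adjusted p = 0.0419). As with Cplx2, none of these called probe sets was the brightest of its gene.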

How the data were processed

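The authors deposited linear signal intensity values, 1 for each probe set on each array. GCOS and RMA stand in the submitters' processing notes, with no version, order or genome build given in the sources used here. Array medians ran from 15.5 to 16.0, and 41.2% of the member probe sets (61.5% of all) had 1 value on at least 2 arrays. The values were log2-transformed without a pseudocount or further normalization. Controls (64 of 45101 probe sets) were dropped. By the platform annotation 34945 probe sets name 1 gene, 932 several and 9160 none, and 34741 were updated by Entrez identifier through RefSeq (GRCm38.p6), used for names and gene order. Promoter windows come from the same RefSeq build.

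Strain means were fitted to all 9 arrays with limma 3.58.1 (R 4.3.3, 6 residual degrees of freedom), with two-sided moderated tests and Benjamini-Hochberg adjustment over all probe sets. The second model added the replicate number as a block (4 residual degrees of freedom). Deviations from strain means correlated between same-numbered arrays at 0.519 to 0.542, 0.147 to 0.18 and 0.205 to 0.266 for numbers 1, 2 and 3. Between number 1 and another number the correlations ran from -0.458 to -0.132. Between numbers 2 and 3 they ran from -0.00664 to 0.153. This last range overlaps that of number 2, so the data set number 1 apart clearly and separate 2 from 3 only weakly. The pairing comes from the data and not from a label, and blocked values are given where they change a call. The number of arrays limits precision.

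The members and lists were chosen with earlier results of these data known. Named probe sets were those called in either model, and in each role group the representative with the largest strain difference. Values on every array are given for these, and values of other members by difference.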

Additional observations from a re-analysis of the deposited data

How the results depend on the processing

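The Cplx2 probe set 1421477_at kept its direction and its call under all alternatives run in both comparisons with BALB/cJ, except that the parental difference was 1.00 and not called without replicate 3 of every strain (limma adjusted p = 0.053), where the count of called member probe sets fell to 0 (0.591% of all probe sets were called). Between the parental strains the count of 1 of 102 (1.43% of all) became 3 with the replicate block (2.12% of all), 2 with log2(intensity + 16) (1.12%), 3 with array weights (2.04%) and 4 with the block after quantile normalization (2.18%). Leaving out 1 array gave 1 to 2 (2 when B6By.C.132.54 replicate 3 or C57BL/6ByJ replicate 1 was the one omitted, with 1.57% and 0.988% of all called), and 1 to 7 with the block, 7 being reached without B6By.C.132.54 replicate 3 (2.93% of all). By representative probe set the count of 0 of 38 (1.32% of all genes) became 1 with log2(intensity + 16) (1.15%) and with array weights (1.91%), and ran from 0 to 1 with 1 array left out (0 to 2 with the block), the highest of both without B6By.C.132.54 replicate 3 (1.45% and 2.84% of all genes). Between B6By.C.132.54 and BALB/cJ the count of 1 (1.28% of all) became 3 with the block (1.85%) and 2 with the block after quantile normalization (1.96%), stayed at 1 with any 1 array left out, and ran from 1 to 2 with both (1.15% to 1.83% of all). The F-test count of 1 (1.28% of all) became 4 with the block (1.86%). The cause of these changes was not tested. Between B6By.C.132.54 and C57BL/6ByJ the count was 0 under each alternative run, and among member, other vesicle and marker genes the block changed no call other than those given in the report. Of 1113 values of named probe sets under alternatives, 31 differed in sign from the value reported, all of them called in neither. The block combined with leaving out arrays or with quantile normalization was chosen after seeing the data. The array count limits these calls. Of the member probe sets, 14 lay below the median of all, and with dim probe sets left out the parental count was 1 of 88 (2.58% of all).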
